A study of Mus musculus with 6 samples.

Results

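The genes described here are 10 mouse CXC chemokine genes, Cxcl1, Cxcl2, Cxcl3, Cxcl5, Cxcl9, Cxcl10, Cxcl11, Cxcl14, Cxcl16 and Pf4, chosen by name from the 25044 genes of a count table and found there by their Ensembl identifiers. They were read as a contrast between the neutrophil attractants that carry a Glu-Leu-Arg (ELR) motif, Cxcl1, Cxcl2, Cxcl3 and Cxcl5, and the interferon-induced T cell attractants Cxcl9, Cxcl10 and Cxcl11, with which Cxcl16 was grouped. RNA sequencing with ribosomal RNA removed was performed on macrophages of wild-type C57BL/6 mice aged 8 weeks, collected from the peritoneal cavity 3 days after thioglycollate, an irritant that recruits monocyte-derived macrophages. Adherent cells (1 h) were cultured for 24 h, then given 100 nM trametinib, which blocks the MEK kinases upstream of ERK, or vehicle (DMSO) for 2 h. Both groups then received LPS, the endotoxin sensed by TLR4, at 100 ng/ml for 12 h. Each group had 3 libraries, and there was no culture without LPS. All values therefore describe LPS-treated cells. The 6 libraries came from a study of 3 mice, and the labels do not say which mouse gave which library. The p values reflect how much these libraries vary. Whether that includes variation between mice is not known, so they are not read as a measure of it. Vehicle replicate 3 stood apart: it differed from the other vehicle libraries by a chi-square per gene of 25.5 and 26.6, against 5.98 between those, while trametinib libraries differed by 12.9 to 28.1.

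CXC chemokines are small secreted proteins that guide leukocytes through G protein-coupled receptors. The ELR members act on the receptor Cxcr2 and recruit neutrophils, and in macrophages exposed to LPS their genes are transcribed through NF-kappaB and their mRNAs are short-lived because of AU-rich elements near the 3' end. Cxcl9, Cxcl10 and Cxcl11 act on Cxcr3, which marks activated T cells and NK cells, and are induced by interferons, in part through IRF factors. Cxcl16 is made as a transmembrane protein that binds Cxcr6 and also takes up oxidized lipoprotein. Pf4, platelet factor 4, is stored in platelet granules, and Cxcl14 is a chemokine of epithelia and other tissues.

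With trametinib, the most abundant ELR chemokine transcripts were lower, whereas Cxcl9 and Cxcl16 were modestly higher. Of the 10 genes, 8 had enough counts to test. Cxcl1 and Cxcl2 fell, Cxcl9 and Cxcl16 rose, and Cxcl3, Cxcl10, Cxcl11 and Pf4 did not pass an adjusted p of 0.05 in edgeR's quasi-likelihood test. The 2 genes that fell and the 2 that rose stand beside 18.4% of all 11286 tested genes lower and 15.8% higher, 34.3% in all. The groups did not overlap for 4 of the 8, Cxcl1, Cxcl2, Cxcl9 and Cxcl16, against 49.3% of all tested genes. The median log2 fold change of the 8 was 0.27, against -0.005 over all tested genes. With the replicate number as a block, 3 of the 8 were lower and 4 higher, beside 22.4% and 20.5% of all tested genes. This added Cxcl3, Cxcl10 and Pf4 to the calls. Cxcl3 entered the test only through the vehicle libraries, so its call is not read as a result. Without vehicle replicate 3 the same 4 genes passed, with log2 fold changes of -4.16 for Cxcl2, -2.11 for Cxcl1, 0.67 for Cxcl9 and 0.33 for Cxcl16.

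**Figure D1:**
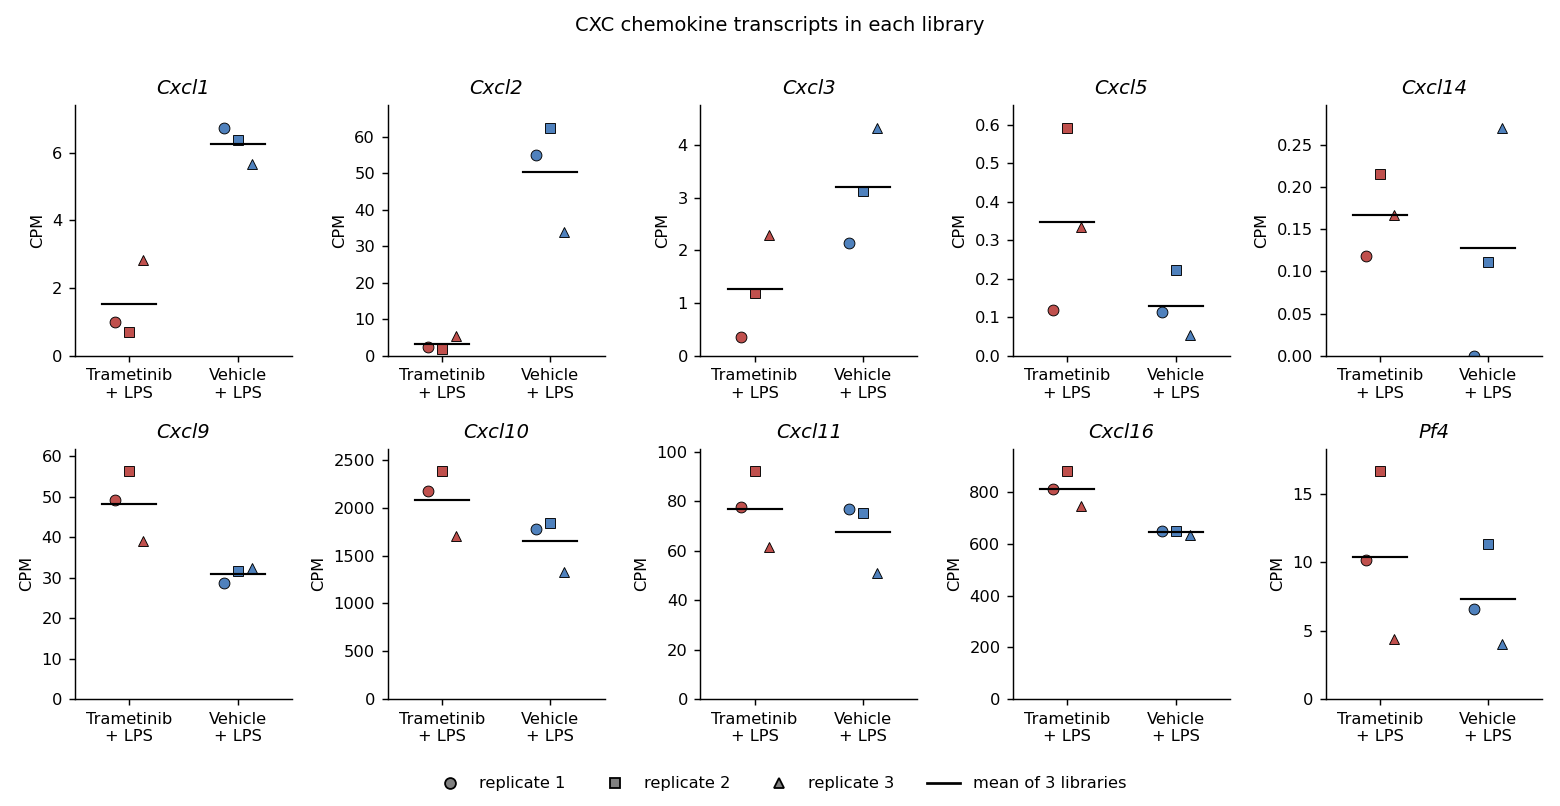
CPM (counts scaled to a fixed library size with TMM factors) of the 10 chemokine genes in each library, with trametinib + LPS on the left and vehicle + LPS on the right of each panel; symbols mark the replicate number and bars the mean of 3 libraries. Each panel has its own axis from 0. Cxcl1 and Cxcl2 lie lower in all 3 trametinib libraries, and Cxcl9 and Cxcl16 lie higher in all 3.

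The ELR genes lie together on mouse chromosome 5. On mm10, Cxcl5 (chr5:90759360-90761624), Cxcl3 (chr5:90786103-90789600), Cxcl1 (chr5:90891241-90893115) and Cxcl2 (chr5:90903871-90905938) are all on the plus strand. RefSeq promoter windows on GRCm38.p6, from 250 bases before to 50 after a gene's start, were matched by symbol for 7 of the 10 genes, all but Cxcl5, Cxcl11 and Cxcl16. An NF-kappaB consensus was found in the windows of Cxcl1, Cxcl2, Cxcl3 and Cxcl10, on either strand, against 4.51% of all 32851 windows. The exact letters GGAATTTCC, which overlap that consensus, were present in these same 4 windows, in Cxcl10 on the other strand, and in 0.317% of all windows. The upstream sequences of the 3 ELR promoters and of Cxcl10 are shown because both kinds of chemokine gene hold this match. They run 5' to 3' in the direction of transcription and end at the base before the RefSeq start, which is position -1. Capitals in the ELR promoters mark the NF-kappaB consensus, which begins at -71 in Cxcl1, -97 in Cxcl2 and -73 in Cxcl3. The stretches are chr5:90891135-90891244, chr5:90903789-90903898 and chr5:90785991-90786100, plus strand.
Cxcl1: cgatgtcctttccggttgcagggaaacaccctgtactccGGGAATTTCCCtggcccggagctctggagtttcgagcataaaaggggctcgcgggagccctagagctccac
Cxcl2: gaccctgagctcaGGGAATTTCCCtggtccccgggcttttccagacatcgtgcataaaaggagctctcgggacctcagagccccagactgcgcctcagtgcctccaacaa
Cxcl3: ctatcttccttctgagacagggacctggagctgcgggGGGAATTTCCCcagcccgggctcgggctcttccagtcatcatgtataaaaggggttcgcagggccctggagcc
In the Cxcl10 stretch, chr5:92348890-92349139 on the minus strand, capitals mark in order an IRF core at -211, NF-kappaB matches at -159 and -103, and an AP-1 site at -74.
Cxcl10: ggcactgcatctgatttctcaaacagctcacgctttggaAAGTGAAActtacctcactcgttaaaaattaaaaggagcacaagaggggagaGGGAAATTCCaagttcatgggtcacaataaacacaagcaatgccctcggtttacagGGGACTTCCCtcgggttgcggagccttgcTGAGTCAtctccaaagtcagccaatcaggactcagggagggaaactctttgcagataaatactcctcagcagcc
The IRF core was searched as AANNGAAA and occurred in 23.9% of all windows, and the AP-1 site as TGANTCA in 7.81%. Besides Cxcl10, the IRF core matched the Cxcl14 window and the AP-1 site the Cxcl9 window, at 32 bases after the start. An ETS site, CCGGAAGT, and an EGR site, GCGTGGGCG, matched none of the 7 windows and occurred in 3.89% and 0.612% of all windows. A STAT site, TTCNNNGAA, matched the Cxcl14 window alone among the 7, and 8.3% of all windows. Among the 11497 windows of tested genes, the ETS site occurred in 8.59%, the EGR site in 1.29% and the STAT site in 6.78%. The IRF core occurred there in 18.5%, the AP-1 site in 5.25%, the NF-kappaB consensus in 5.26% and GGAATTTCC in 0.374%. These matches describe letters in a short window and were not tested as binding sites.

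Cxcl2, a major neutrophil attractant of activated macrophages, was the most abundant ELR transcript. It stood at 2.48, 1.88 and 5.46 CPM in the trametinib libraries, against 55.0, 62.4 and 34.0 CPM in the vehicle libraries. All 3 trametinib libraries lay far below the lowest vehicle library, with trametinib replicate 3 the highest of its group and vehicle replicate 3 the lowest. The log2 fold change was -3.94 (SE 0.44, 95% interval -5.05 to -2.84, adjusted p 0.00206), a level 15.4-fold lower. Without trametinib replicate 3 it was -4.53. As in any bulk sample, fewer cells of a type and less RNA per cell cannot be told apart.

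Cxcl1, also called KC, had 1.01, 0.699 and 2.84 CPM with trametinib, in 17, 13 and 51 counts, against 6.73, 6.36 and 5.67 CPM with vehicle. The groups did not overlap, and trametinib replicate 3 was again the highest of its group. The log2 fold change was -2.04 (SE 0.42, 95% interval -3.03 to -1.06, adjusted p 0.00934), and -2.87 without trametinib replicate 3.

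Cxcl3, the third ELR gene tested, was at 0.355, 1.18 and 2.28 CPM with trametinib, against 2.13, 3.12 and 4.32 CPM with vehicle. Trametinib replicate 3 lay above vehicle replicate 1, so the groups overlapped, but within each replicate number the trametinib library was the lower. On the log2 scale the difference was -1.31 (SE 0.53, 95% interval -2.56 to -0.07) and did not pass (adjusted p 0.0969). Other fits called it lower, the blocked one (-1.38, adjusted p 0.00829) and the one that left out trametinib replicate 3 (-2.02, adjusted p 0.0248). Few reads stood behind it, 6 to 41 counts with trametinib and 38 to 80 with vehicle. Cxcl3 entered the test only through the vehicle libraries, so these calls are not read as a result.

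Cxcl5, which epithelial cells and platelets are known to release in mice, had 2, 11 and 6 counts with trametinib, against 2, 4 and 1 with vehicle, and was too low to test. Its level over vehicle was 2.75-fold with an exact 95% interval of 1.11 to 7.75, which covers counting error only. Its groups overlapped, and of the 4 ELR genes described here it was the only one whose sum was not lower with trametinib. Neutrophils make Cxcl2 themselves, so their markers were read beside these values. Of 10 neutrophil markers 4 were tested and none passed, beside 34.3% of all tested genes. Their summed level was 10.1 to 19.5 CPM with trametinib and 9.94 to 21.5 CPM with vehicle. Retnlg was at 0 in every library and Ly6g had at most 1 count. Other neutrophil markers were present: Mmp8 had 168, 166 and 104 counts with trametinib and 250, 258 and 99 with vehicle. S100a8 had 51, 78 and 44 counts with trametinib and 90, 68 and 54 with vehicle, and Camp had 15 to 25. S100a9 was highest in trametinib replicate 2, at 58 counts. Mmp8 was the largest part of the summed level in every library, and it is also on the list of proteases given below.

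The longest identical stretch between the transcripts of Cxcl2 and Cxcl3 is 110 bases, and 6.31% of the 50-base windows of Cxcl3 also occur in Cxcl2. How the authors treated reads that map to both is not given in the sources used here. The values of Cxcl3, the rarer of the pair, are therefore less certain than those of Cxcl1, which shares at most 23 bases in a row with either gene.

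The trailing untranslated regions of the ELR mRNAs were rich in the pentamer AUUUA, the core of AU-rich decay elements. Cxcl1 held 7 in 592 bases (11.8 per kb), Cxcl2 11 in 1494 bases (7.36 per kb), Cxcl3 5 in 645 bases (7.75 per kb) and Cxcl5 5 in 1111 bases (4.5 per kb), counted in the longest coding transcript of GENCODE M21. The median of 10944 tested genes was 1.32 per kb, and 0.594%, 2.32%, 1.88% and 8.21% of them reached the densities of Cxcl1, Cxcl2, Cxcl3 and Cxcl5. Cxcl10 held 3.01 per kb, Cxcl16 1.41, Cxcl9 1.22 and Cxcl11 0.821, and Cxcl14 held none in 1149 bases. Pf4 had 1 pentamer in a region of 123 bases (8.13 per kb). The longer form UAUUUAU occurred 6 times in Cxcl1, 7 times in Cxcl2, 2 times in Cxcl3 and 1 time in Cxcl5, and in none of the other 6 genes. At least as many copies were held by 0.338%, 0.201%, 10.6% and 30.1% of the tested genes. The counts of Cxcl3 and Cxcl5 are thus not rare, and most tested genes held none.

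**Figure D2:**
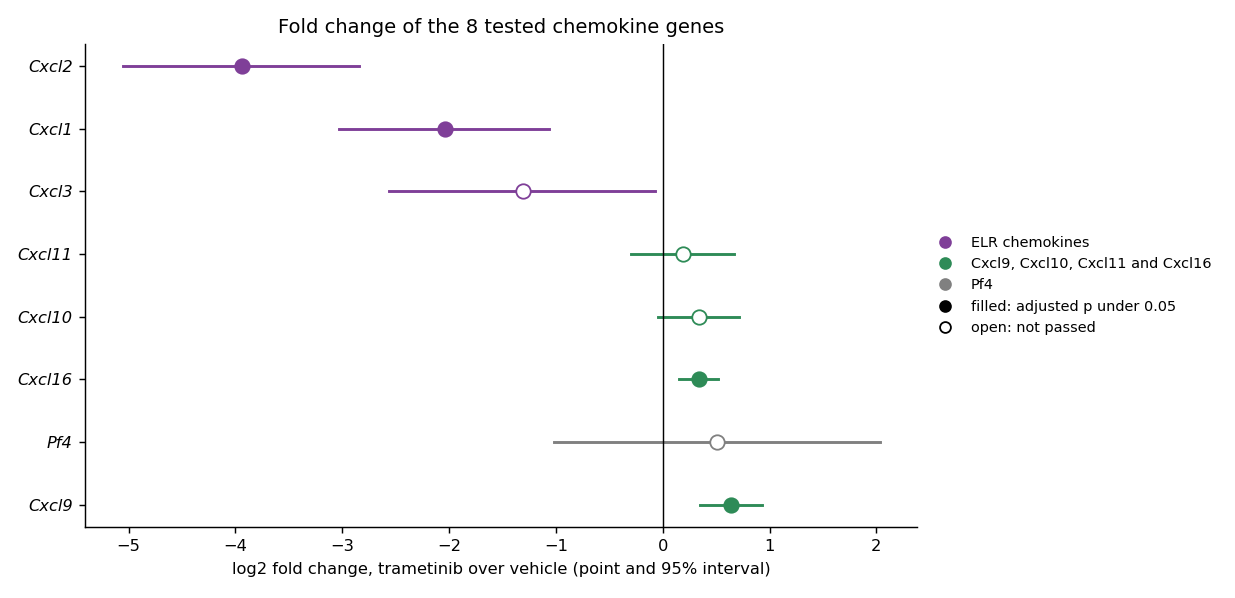
Log2 fold change, trametinib over vehicle, of the 8 tested chemokine genes; points are edgeR estimates, lines their 95% intervals, and filled points passed an adjusted p of 0.05. Cxcl2 at -3.94, Cxcl1 at -2.04 and Cxcl3 at -1.31 lie left of 0, and Cxcl9 at 0.64 and Cxcl16 at 0.34 lie right of it.

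Cxcl9, a T cell attractant induced above all by interferon gamma, rose with trametinib. It had 49.2, 56.3 and 39.0 CPM in trametinib libraries, against 28.8, 31.6 and 32.4 CPM in vehicle libraries. The lowest trametinib library, replicate 3, lay above the highest vehicle library. This was a log2 fold change of 0.64 (SE 0.13, 95% interval 0.35 to 0.93, adjusted p 0.00616), a 1.56-fold higher level. Within the replicate numbers, the differences of log2 CPM were 0.77, 0.83 and 0.27.

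Cxcl10, the most abundant chemokine of the set, stood at 2172, 2380.3 and 1704 CPM with trametinib and at 1781, 1845 and 1324 CPM with vehicle. The groups overlapped, since trametinib replicate 3 lay below vehicle replicates 1 and 2. The log2 fold change was 0.34 (SE 0.16, 95% interval -0.04 to 0.71) and did not pass (adjusted p 0.147). Within the replicate numbers, however, the differences of log2 CPM were 0.29, 0.37 and 0.36, and with the replicate block the fold change of 0.34 passed (adjusted p 0.00223). Replicate 3 was the lowest library of both groups.

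Cxcl11 had 77.6, 92.1 and 61.5 CPM with trametinib, against 77.0, 75.2 and 51.1 CPM with vehicle. The groups overlapped, and the log2 fold change of 0.19 (SE 0.20, 95% interval -0.30 to 0.67, adjusted p 0.518) did not pass here or in any of 13 other settings. The interval leaves room for a fold change as large as that of Cxcl9. GENCODE lists the gene as a polymorphic pseudogene: C57BL/6 mice carry a frameshift in Cxcl11 and make no functional protein, so its RNA reports on transcription of the locus and not on the chemokine.

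Cxcl16 is transcribed from chr11:70453983-70459984 on the minus strand (mm10). It had 812, 880.0 and 746 CPM with trametinib and 649, 648 and 636 CPM with vehicle. The vehicle libraries were close together and all lay below the trametinib libraries. The log2 fold change was 0.34 (SE 0.08, 95% interval 0.15 to 0.52, adjusted p 0.0122), or 1.26-fold. It no longer passed when trametinib replicate 1 (adjusted p 0.0525) or replicate 2 (adjusted p 0.0505) was left out. The gene overlaps Zmynd15 on the other strand, which had 1267, 1380 and 1435 counts with trametinib and 1236, 1224 and 1471 with vehicle, and the strand setting of the counting is not given in the sources used here. Dendritic cells are a further source of Cxcl16 and Cxcl9. Of 5 dendritic cell markers 2 were tested and none passed, beside 34.3% of all tested genes. The summed level of the 5 was 13.0 to 24.6 CPM with trametinib and 2.36 to 8.21 CPM with vehicle. Ccr7 averaged 14.5 ± 6.91 CPM with trametinib and 3.29 ± 3.36 CPM with vehicle (SD, n = 3), and its groups did not overlap. Cd209a had at most 1 count in any library. The part of such cells in the values of Cxcl9 and Cxcl16 was not tested.

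Per kb of exon, the order of levels differed between the groups in the place of Cxcl2. With trametinib, the mean CPM per kb was 926 for Cxcl10, 269 for Cxcl16, 20.3 for Cxcl11, 16.0 for Cxcl9, 14.4 for Pf4, 1.58 for Cxcl2, 0.808 for Cxcl1, 0.364 for Cxcl3, 0.187 for Cxcl5 and 0.0913 for Cxcl14. Over libraries, the ranges of neighbours in this order overlapped except between Cxcl10 and Cxcl16, Cxcl16 and Cxcl11, and Pf4 and Cxcl2. With vehicle, Cxcl10 stood at 733, Cxcl16 at 213, Cxcl2 at 24.4, Cxcl11 at 17.9, Cxcl9 at 10.2, Pf4 at 10.2, Cxcl1 at 3.34, Cxcl3 at 0.913, and Cxcl5 and Cxcl14 both at 0.0697 CPM per kb. There the neighbours with overlapping ranges were Cxcl2 and Cxcl11, Cxcl9 and Pf4, and Cxcl5 and Cxcl14. Cxcl2 thus had rank 6 with trametinib and rank 3 with vehicle.

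The balance within a library can be given on the same scale. The ELR genes together made up 0.148%, 0.137% and 0.478% of the summed CPM per kb of the 10 genes with trametinib, and 2.87%, 3.10% and 2.44% with vehicle. The sum of Cxcl9, Cxcl10 and Cxcl11 was 526, 568 and 158 times the ELR sum with trametinib. With vehicle it was 26.6, 24.6 and 29.5 times. The ELR sum was 1.90 to 4.99 CPM per kb with trametinib and 20.8 to 34.6 with vehicle. The other sum, mostly Cxcl10, was 786 to 1100 with trametinib and 612 to 849 with vehicle, and its groups overlapped. The ratio thus differed mainly through the ELR sum. The vehicle libraries were alike in this ratio, whereas trametinib replicate 3 stood well below the other trametinib libraries and still well above the vehicle libraries. Among the ELR genes themselves, Cxcl2 contributed 63.1%, 46.9% and 52.9% of the ELR sum per kb with trametinib and 86.2%, 87.3% and 79.3% with vehicle. Such shares depend on the gene length used: Cxcl3 has 3498 bases of merged exon, but its longest coding transcript has 1016. Cxcl10 made up 72.5% to 75.0% of the 10-gene sum with trametinib and 69.3% to 73.5% with vehicle.

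**Figure D3:**
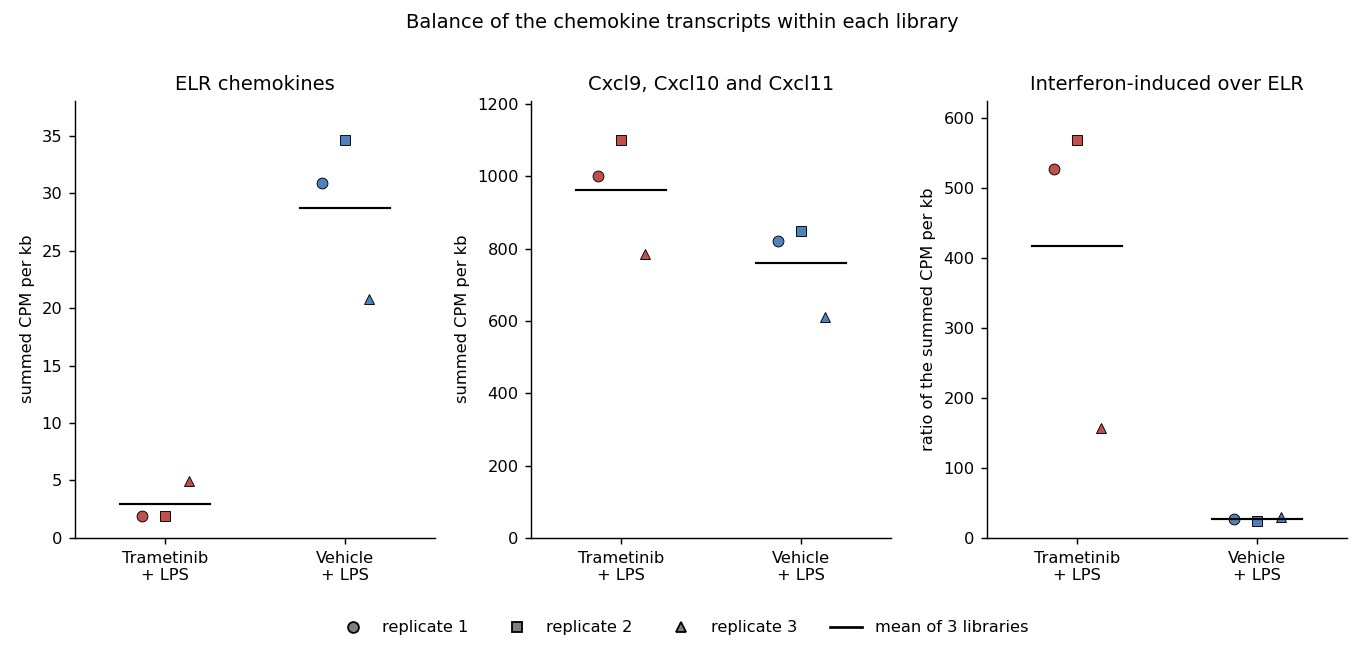
Summed CPM per kb of the 4 ELR genes (left) and of Cxcl9, Cxcl10 and Cxcl11 (middle), and the ratio of the second sum to the first (right), in each library, with trametinib + LPS left of vehicle + LPS. The ratio is 158 to 568 with trametinib and 24.6 to 29.5 with vehicle.

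Of the 10 genes, 8 lie in a pair of clusters on chromosome 5. The ELR genes share a span of 147 kb with Pf4 (chr5:90772435-90773383), the platelet gene Ppbp and Cxcl15, and within it Cxcl1 and Cxcl2 fell, whereas Pf4 and Ppbp had log2 fold changes of 0.51 and 0.41 that did not pass. Next to Cxcl2 on the outside, Mthfd2l, an enzyme of mitochondrial folate metabolism, had 10, 7 and 9 counts with trametinib, against 34, 30 and 39 with vehicle, a log2 difference of -1.95 (SE 0.28). It entered the test only through the vehicle libraries, so its passing is not read as a result. Rassf6 on the other side had at most 1 count. Cxcl9 (chr5:92321347-92328079), Cxcl10 (chr5:92346638-92348889) and Cxcl11 (chr5:92359544-92365485) span 44.1 kb on the minus strand of the same chromosome. Their outer neighbours both fell, whereas Cxcl9 rose: Sdad1 fell by 0.86 (SE 0.11, adjusted p 0.000787) and Nup54, a nuclear pore subunit, fell by 0.37 (SE 0.07, adjusted p 0.00564) on the log2 scale. Art3, which overlaps Cxcl10 and Cxcl11 on the plus strand, had 10 to 21 counts with trametinib and 8 to 14 with vehicle, too few to bear on the Cxcl10 counts of 24510 to 44290 per library.

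**Figure D4:**
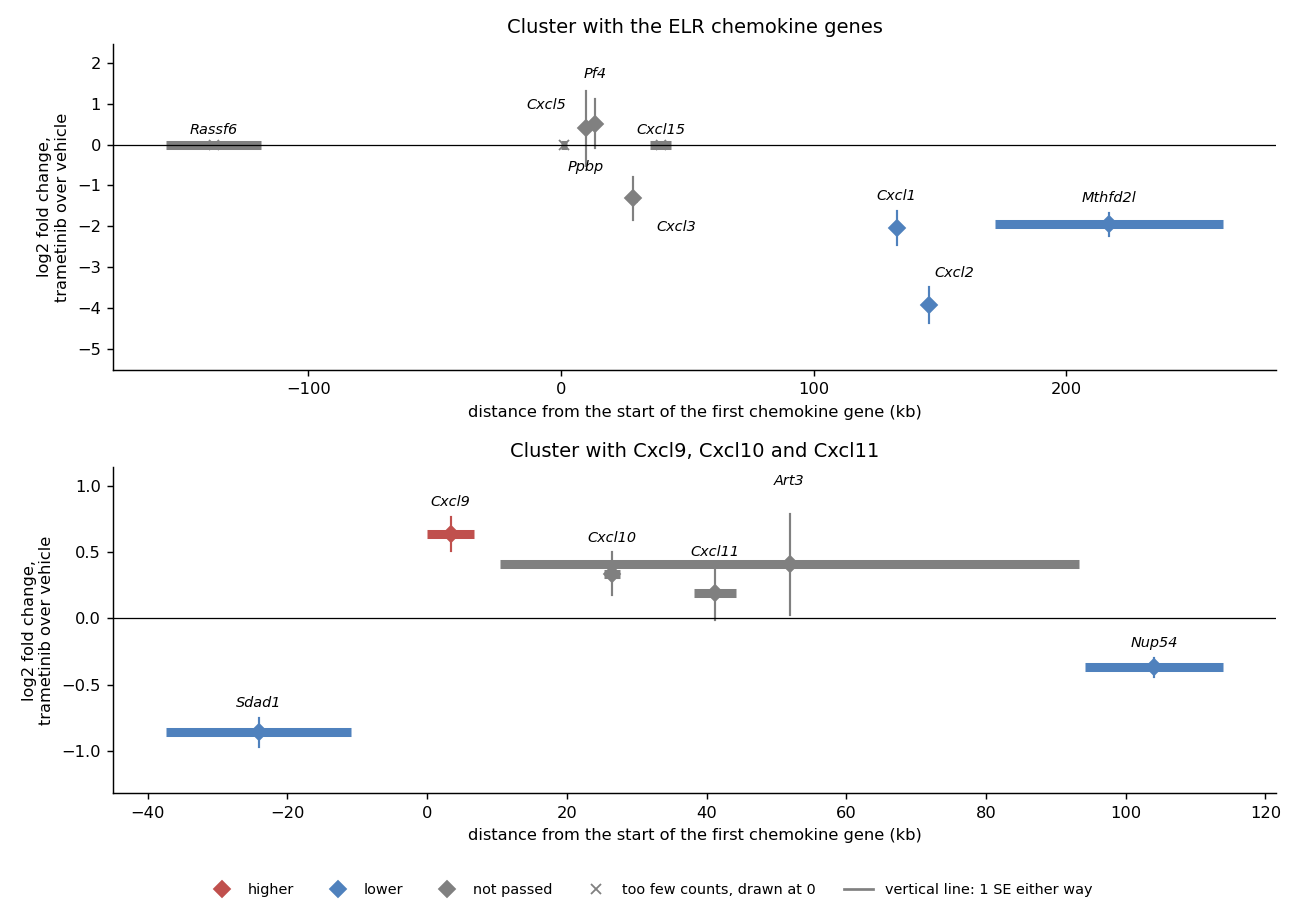
Log2 fold change, trametinib over vehicle, of the genes in and beside the chemokine clusters of chromosome 5 against distance in kb from the first chemokine gene; thick bars show the extent of a gene, diamonds the estimate, thin lines 1 SE either way and crosses genes with too few counts, drawn at 0. Cxcl1, Cxcl2 and Mthfd2l, which was tested only because of its vehicle counts, lie between -1.95 and -3.94, and Cxcl9, Cxcl10 and Cxcl11 between 0.19 and 0.64.

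Pf4 varied with the replicate number. It had 10.2, 16.7 and 4.40 CPM with trametinib, against 6.62, 11.4 and 4.00 CPM with vehicle, highest in replicate 2 and lowest in replicate 3 of both groups. Its log2 fold change was 0.51 (SE 0.60, 95% interval -1.02 to 2.03, adjusted p 0.555). With the replicate block it passed at 0.47 (adjusted p 0.0217), and without trametinib replicate 2 it was -0.01 (adjusted p 0.994). Ppbp, a platelet chemokine of the same cluster, had 43, 92 and 7 counts with trametinib and 30, 65 and 12 with vehicle, in the same order over the replicate numbers (0.41, SE 0.92, adjusted p 0.763). Itga2b, the platelet integrin subunit, was likewise highest in replicate 2 and lowest in replicate 3 of both groups. Its log2 fold change of 0.66 (adjusted p 0.504) passed with the block (0.72, adjusted p 0.0240). The order was not shared by all platelet markers: Tubb1 had 1.89, 2.36 and 2.39 CPM with trametinib and 0.841, 1.34 and 2.00 with vehicle. Nor was it particular to them, since Cxcl10 was also highest in replicate 2 and lowest in replicate 3 of both groups. Of 10 platelet and megakaryocyte markers, 7 were tested: Gp6, Clec1b and Treml1 rose, and the others did not pass. Over all tested genes, 15.8% were higher. The call of Clec1b was lost without trametinib replicate 1 or 2 or vehicle replicate 1, at adjusted p up to 0.0861. Gp6, a collagen receptor, had 14.7, 16.6 and 7.85 CPM with trametinib, against 4.04, 4.35 and 3.73 CPM with vehicle (1.69, SE 0.28, adjusted p 0.00365). The summed platelet level was 20.6 to 46.0 CPM with trametinib and 11.2 to 24.0 CPM with vehicle, and Gp1bb was at 0 in every library. The part of platelets in the Pf4 values was not tested. Cxcl14 (chr13:56288643-56296551, minus strand) had 2, 4 and 3 counts with trametinib and 0, 2 and 5 with vehicle, at or near the limit of detection, and was not tested.

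**Figure D5:**
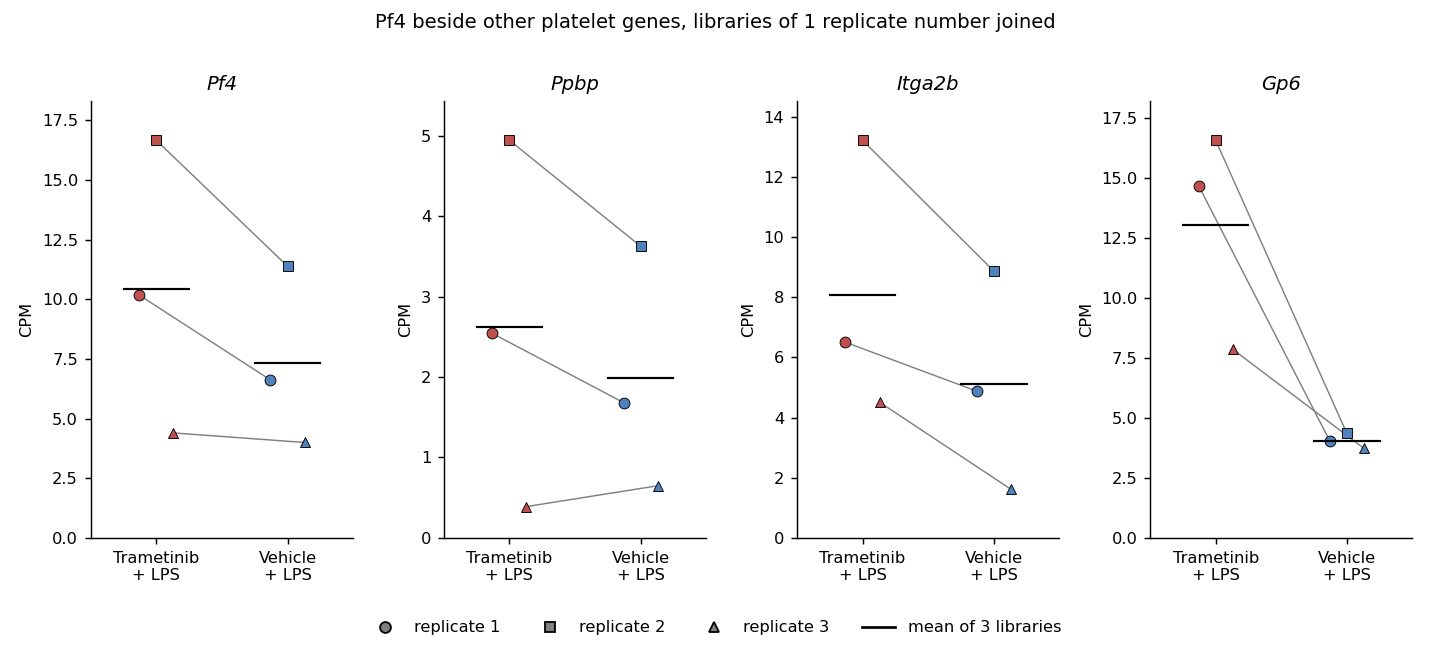
CPM of Pf4, Ppbp, Itga2b and Gp6 in each library, trametinib + LPS left of vehicle + LPS, with grey lines joining libraries of 1 replicate number. Pf4, Ppbp, Itga2b and Gp6 are highest in replicate 2 and lowest in replicate 3 of both groups, and Gp6 is higher in all 3 trametinib libraries.

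The other CXC ligands of a wider list were nearly silent: Cxcl12, Cxcl13 and Cxcl17 had at most 1 count in any library and Cxcl15 had none. Among the receptors, 3 of 8 were tested and all 3 passed as higher, beside 15.8% of all tested genes. Cxcr4, the receptor of Cxcl12, had 201, 171 and 189 CPM with trametinib, against 61.7, 51.8 and 94.6 CPM with vehicle (1.43, SE 0.22, adjusted p 0.00396). Cxcr3, which binds Cxcl9, Cxcl10 and Cxcl11, was far lower, at 5.68, 5.91 and 5.57 CPM with trametinib and 3.03, 3.12 and 4.43 CPM with vehicle. Its log2 fold change was 0.69 (SE 0.17, adjusted p 0.0142), which did not pass when trametinib replicate 2 (adjusted p 0.0516), vehicle replicate 1 (adjusted p 0.0590) or vehicle replicate 2 (adjusted p 0.0559) was left out. Cxcr3 marks T and NK cells, and of 8 markers of these cells only Cd4 was tested. Cd4 had 276, 472 and 291 counts with trametinib and 240, 309 and 194 with vehicle (0.49, SE 0.24, adjusted p 0.159). The other 7, Cd3d, Cd3e and Cd3g among them, had at most 2 counts in any library. The summed level of the 8 was 16.3 to 25.5 CPM with trametinib and 10.6 to 17.5 CPM with vehicle, and their part in the Cxcr3 values was not tested. Cxcr1, a neutrophil receptor of ELR chemokines, had 14, 30 and 28 counts with trametinib and 5, 1 and 9 with vehicle (2.25, SE 0.53, adjusted p 0.0110), and 2.95 without vehicle replicate 3. It entered the test only through the trametinib libraries, so its place among the 3 is not read as a result. Cxcr2, the main receptor of the ELR ligands, had at most 2 counts, and Cxcr6, the receptor of Cxcl16, had 1, 4 and 2 counts with trametinib and 8, 6 and 8 with vehicle. Cxcr5 had 2 to 5 counts per library, Ackr1 at most 2 and Ackr3 none.

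Genes of the route to Cxcl9, Cxcl10 and Cxcl11 moved in both directions. Of 17 tested, 7 rose, 2 fell and 8 did not pass, beside 15.8% of all tested genes higher and 18.4% lower, with a median log2 fold change of 0.20. The number that rose depended on the fit: it was 3, 4 and 4 without trametinib replicate 1, trametinib replicate 2 or vehicle replicate 1, 8 without vehicle replicate 3, and 10 with the replicate block, beside 20.5% of all tested genes higher. The genes that the block added, named for that reason after their values were seen, were Ifnar2 (0.18, adjusted p 0.0357), Irf7 (0.21, adjusted p 0.0165) and Usp18 (0.21, adjusted p 0.0163). The 2 that fell were receptor chains: Ifngr1, for interferon gamma, averaged 32.2 ± 1.89 CPM with trametinib and 64.5 ± 6.95 CPM with vehicle (SE 0.09 on the log2 scale, adjusted p 0.00028). Ifnar1, for type I interferon, averaged 160.2 ± 12.7 CPM with trametinib and 234 ± 11.9 CPM with vehicle (-0.55, SE 0.09, adjusted p 0.00186; all ± are SD, n = 3). The transcription factor Irf8 rose by 0.59 (SE 0.07, adjusted p 0.000755) and the kinase Tyk2 by 0.64 (SE 0.11, adjusted p 0.0024). Named after their values were seen, Irf1 rose by 0.51 (SE 0.10, adjusted p 0.00427), and Ifnb1, the interferon beta gene, had 6.62, 6.34 and 7.52 CPM with trametinib and 2.47, 2.51 and 5.13 CPM with vehicle. Its log2 fold change of 1.01 (SE 0.27, adjusted p 0.0229) was not called without any 1 of the trametinib libraries or vehicle replicate 1 or 2, where adjusted p ran up to 0.0722. Interferon gamma itself, Ifng, had 1 count in 1 vehicle library and none elsewhere.

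Genes of the NF-kappaB and ERK route to the ELR chemokines also moved in both directions. Of 21 tested, 10 fell, 4 rose and 7 did not pass, beside 18.4% of all tested genes lower and 15.8% higher, with a median log2 fold change of -0.22. The number that rose was 2 without trametinib replicate 1, trametinib replicate 2 or vehicle replicate 2 and 1 without vehicle replicate 1, while 8 to 10 fell when 1 library was left out. Egr1, an immediate early gene downstream of ERK, had 1, 2 and 2 counts with trametinib, against 163, 178 and 67 with vehicle. It counts among the 10, but it entered the test only through the vehicle libraries and its passing is not read as a result. Cebpd, a transcription factor of the LPS response, averaged 3.73 ± 0.862 CPM with trametinib and 26.9 ± 6.75 CPM with vehicle (-2.85, SE 0.24, adjusted p 0.000412). Nfkbiz, which encodes a nuclear IkappaB protein that assists a subset of NF-kappaB targets, averaged 49.7 ± 8.09 CPM with trametinib and 139 ± 15.5 CPM with vehicle (-1.48, SE 0.13, adjusted p 0.00036). Tnf, another LPS-induced cytokine gene, averaged 417 ± 17.4 CPM with trametinib and 1054 ± 144 CPM with vehicle (-1.34, SE 0.11, adjusted p 0.000178). Rela, the gene of an NF-kappaB subunit and named after its values were seen, was at 0.21 on the log2 scale, which did not pass (adjusted p 0.0581) but passed in 6 of 13 other settings, the replicate block among them (adjusted p 0.0266). The block also called Myd88 (-0.22, adjusted p 0.0152) and no longer called Il1b (-2.30, adjusted p 0.125), both named after their values were seen. Il1b, at -2.10 (adjusted p 0.0419) without the block, was also not called in any setting that left out 1 library other than trametinib replicate 3.

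Of 10 genes for AU-rich mRNA binding and decay, 5 fell, 2 rose and 3 did not pass, beside the same shares of all tested genes, with a median of -0.22. Without trametinib replicate 2 or vehicle replicate 1, 3 fell. The 2 that rose encode proteins that bind AU-rich elements and promote decay. Zfp36, tristetraprolin, had 386, 353 and 299 CPM with trametinib, against 219, 206 and 166 CPM with vehicle (0.81, SE 0.13, adjusted p 0.00194), and Zfp36l1 rose by 1.64 (SE 0.28, adjusted p 0.00319). Mapkapk2, the kinase that restrains tristetraprolin, fell by 0.56 (SE 0.07, adjusted p 0.000787), and Hnrnpd, another AU-rich element binding protein, fell by 0.35 (SE 0.07, adjusted p 0.00407). The others that fell, named after their values were seen, include decay factors too. They were Zfp36l2, a relative of Zfp36 (-0.40, adjusted p 0.00666), the RNase gene Zc3h12a (-0.32, adjusted p 0.0161) and Elavl1 (-0.30, adjusted p 0.0281). Of 7 tested genes for proteases that cleave or shed chemokines, Ctsk rose by 1.25 (SE 0.15, adjusted p 0.00115), Mmp14 fell by 0.36 (SE 0.07, adjusted p 0.00612) and 5 did not pass. This is near the shares over all tested genes, 15.8% higher and 18.4% lower. Adam10 and Adam17, the second of them named after its values were seen, can release Cxcl16 from the membrane. They had log2 fold changes of 0.18 and 0.11 and adjusted p of 0.108 and 0.392. Without vehicle replicate 3 both passed, at 0.25 (adjusted p 0.0119) and 0.21 (adjusted p 0.0419). The block alone also called Adam10 (adjusted p 0.0447). Mmp12, a macrophage protease known to trim ELR chemokines, was at -0.39 (adjusted p 0.267), and passed under the block at the same -0.39 (adjusted p 0.00197).

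The genes whose pattern over the 6 libraries was most like that of Cxcl2, among 8576 compared by the root mean square difference of centred log2 CPM, were C5ar1 (0.153), Siglece (0.283), Gpr84 (0.414), Prag1 (0.442) and Dusp4 (0.455). C5ar1, the receptor of the complement fragment C5a, averaged 5.80 ± 2.47 CPM with trametinib and 104 ± 31.3 CPM with vehicle. For Cxcl10 they were Trem2 (0.030), Slfn1 (0.045), Lgmn (0.046), Plin2 (0.046) and Rnase4 (0.048). Trem2, a lipid-sensing macrophage receptor, averaged 289.8 ± 43.3 CPM with trametinib and 226 ± 40.5 CPM with vehicle. None of these 5 passed, and Trem2, Slfn1, Lgmn and Plin2 passed with the replicate block, as Cxcl10 did. Since they were picked for their likeness to Cxcl10 in the same libraries, shared calls give no separate support. These are descriptions over 6 libraries with no test.

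The libraries held 17453778 to 19648467 counts, so that 3 counts correspond to 0.153 to 0.172 CPM before scaling. Macrophage markers were high in every library, with a summed level of 14767 to 16401.5 CPM for 8 markers with trametinib and 15783 to 17563 CPM with vehicle, of which 2 rose (Mertk and Cd14), 2 fell (Adgre1 and Itgam) and 4 did not pass. The marker counts here stand beside 15.8% of all tested genes higher and 18.4% lower. The calls of Cd14 and Itgam were lost in some settings that left out 1 library, at adjusted p up to 0.100 and 0.134. Of 8 markers of resident peritoneal macrophages 4 were tested: Garnl3 rose (0.83, SE 0.27, adjusted p 0.0390), with 31, 32 and 25 counts with trametinib and 14, 21 and 15 with vehicle, and Timd4, Icam2 and F5 did not pass. Garnl3 was not called in 6 of 13 other settings, among them those without trametinib replicate 1 or 2 or vehicle replicate 1 or 3, where adjusted p ran up to 0.132. The summed level of the 8 was 5.46 to 7.69 CPM with trametinib and 3.67 to 6.92 CPM with vehicle, and Gata6, the factor that defines these cells, had at most 1 count. Of 5 B cell and 8 fibroblast and mesothelial markers none had enough counts to test.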

How the data were processed

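RNA of 6 macrophage cultures was sequenced after removal of ribosomal RNA. The deposited table holds raw counts of reads per gene. Per the submitters' processing notes, the tools were featureCounts 1.6.4, HISAT2 2.1.0, R 3.6.0 and DESeq2 1.24.0, on mm10. For the annotation, the strand setting and multiply mapped reads, the treatment is not given in the sources used here. Of 25354 entries, 310 repeated 1 of 205 identifiers with equal values and were dropped; 25033 of 25044 genes had a GENCODE M21 entry. No library was a copy of another (chi-square per gene 5.98 to 28.1 within groups).

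Groups follow the labels. After filterByExpr and TMM scaling, all genes were compared by edgeR 4.0.16 (quasi-likelihood, robust, group only, 4 residual degrees of freedom, R 4.3.3), with Benjamini-Hochberg adjustment over 11286 genes and a threshold of 0.05. The SE was taken as the log2 fold change over the root of F. CPM are counts scaled to a fixed total with the TMM-adjusted library size, and CPM per kb divide by the merged exon length. Intervals on ratios of counts cover counting error only. As a check of pairing, deviations from group means were correlated. Same-numbered libraries gave 0.347, 0.382 and 0.271, and others -0.0719 to -0.237. Deviations within a group cancel out, so the negative values of the others follow in part from the positive ones. From the same-numbered values, the numbers were taken to pair the libraries, a reading that comes from the data. The labels name no mouse. The comparison was run without this block, and the blocked value is given where it changed the call of a chemokine or of a gene in a pathway list.

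The alternatives were DESeq2 size factors, TMM leaving out mitochondrial genes and the 10 most abundant ones, no filter, at least 1 CPM in 3 libraries, DESeq2 1.42.0, limma-voom (limma 3.58.1), the replicate block, leaving out each library, and the longest transcript as gene length. Simulated counts were used to check the edgeR steps. The members and lists were chosen with earlier results of these data known. Named genes are every member, the 4 smallest p of a pathway list, all receptors and other ligands and the cluster neighbours. The 5 genes most like Cxcl2 and Cxcl10 (mean of at least 5 CPM, prior count 0.5 for log2) are named too. The text says which others on the pathway lists were named after their values were seen. Cell type markers are given by list. No rule picked single markers. Gp6, Clec1b, Treml1, Itga2b, Mertk, Adgre1, Itgam, Cd14, Garnl3, Mmp8, S100a8, S100a9 and Camp were named after their values were seen. Python 3.11.15, pandas 2.3.3 and matplotlib 3.10.9 were used.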

Additional observations from a re-analysis of the deposited data

How the results depend on the processing

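The calls of Cxcl1, Cxcl2 and Cxcl9 held in all 13 alternatives, with log2 fold changes of -2.87 to -1.68, -4.53 to -3.65 and 0.52 to 0.77. Cxcl16 kept its direction in all 13 and its call in 11. Cxcl3 passed in 3 of 13, DESeq2 among them (adjusted p 0.0344), and Cxcl11 in none. Since Cxcl3 entered the test only through the vehicle libraries, its calls in this section are not read as a result. Of 104 values for the 8 tested chemokines, 1 changed sign: Pf4, which ran from -0.01 without trametinib replicate 2 to 0.97 with another library left out. Ppbp ran from -0.44 without trametinib replicate 2 and -0.01 without vehicle replicate 3 to 1.18. The cause was not tested. When 1 library was left out, 2428 to 4663 genes were called, against 3869 with all libraries, 2 to 3 ELR chemokines were lower, against 2, and 1 to 2 of Cxcl9, Cxcl10, Cxcl11 and Cxcl16 were higher, against 2; leaving out trametinib replicate 1 gave 2428 and vehicle replicate 1 gave 2538. With 1 library left out, the smaller group has 2 libraries. With the replicate block as a term for the pairing, 4837 genes were called, 3 ELR chemokines lower and 3 of the 4 others higher; among the chemokines it changed the calls of Cxcl3, Cxcl10 and Pf4 and of no other. Without the filter, Cxcl5 and Cxcl14 could be fitted at 1.40 (adjusted p 0.189) and 0.36 (adjusted p 0.794). With the longest transcript as gene length, 8 of 10 ranks were the same in each group. For Cxcl1, Cxcl2, Cxcl3 and Cxcl10 this check could show little, because merged exons and longest transcript are nearly equal in length. In Cxcl3 both have 3498 bases. The longest coding transcripts of these genes are shorter, at 953, 1859, 1016 and 1353 bases, and levels per kb were not computed with those. Depth limits Cxcl3, Cxcl5 and Cxcl14, with at most 80, 11 and 5 counts per library.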
